A study of Mus musculus with 12 samples.

Results

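The small nucleolar RNA (snoRNA) host genes Snhg1, Snhg3, Snhg5, Snhg7, Snhg8, Snhg12 and Gas5 were followed through luteolin and LPS treatment of BV-2 microglia. These 7 genes were taken as a group because the signal of Snhg1 was lower in luteolin-treated cultures, so the luteolin contrasts of the group are given as a description, with no test. By the array annotation, 16 of the 45101 probe sets named 1 of the 7 genes alone, out of 18194 genes with a probe set of their own. Of these 16, Snhg1 had 5, Gas5 had 4, Snhg5 had 3, and Snhg3, Snhg7, Snhg8 and Snhg12 had 1 each. A further 2 probe sets named a host gene together with a snoRNA (Snhg8 with Snora24, Gas5 with Snord47) and were kept apart from all counts.

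BV-2 is an immortalized, microglia-like mouse cell line. Luteolin is a flavonoid made by plants. LPS, from the outer membrane of Gram-negative bacteria, activates these cells by way of Toll-like receptor 4. Cultures of this 1 line were kept for 24 h with both luteolin (50 µM) and LPS (50 ng/ml), with LPS alone, with luteolin alone, or as non-stimulated control, and each condition was hybridized to 3 Affymetrix Mouse Genome 430 2.0 arrays, 12 in all. Luteolin was dissolved in DMSO, and a separate vehicle arm was not analysed here. The extraction protocol in the labels names PUER cells, whereas the treatment protocol and the study name BV-2.

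A snoRNA host gene carries snoRNAs in its introns. The introns are trimmed to mature snoRNAs, of which the box C/D type guides ribose methylation and the box H/ACA type guides pseudouridylation of ribosomal RNA. The spliced exons of these genes code for no known conserved protein. Many of the spliced transcripts begin with a terminal oligopyrimidine tract, as ribosomal protein mRNAs do, are bound by ribosomes and are destroyed by nonsense-mediated decay. Gas5 is named for its accumulation in growth-arrested cells. The arrays read the host transcripts, and mature snoRNAs were not measured here.

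In the RefSeq gene table of the GRCm38.p6 build, Snhg1 on chromosome 19 held 8 annotated snoRNA genes, among them Snord22, and Gas5 on chromosome 1 also held 8, among them Snord47. Snhg12 and Snhg3 both lie on chromosome 4. Snhg12 held 4 (Snora16a, Snora44, Snora61 and Snord99) and Snhg3 held 2 (Snora73a and Snora73b). Snhg5 on chromosome 9 held 2, Snhg7 on chromosome 2 held 2 (Snora17 and Snora43), and Snhg8 on chromosome 3 held Snora24.

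RefSeq gave 8 transcription starts for the 7 genes, 2 of them for Gas5. The 110 bases around the start (60 before and 50 after) are shown for Snhg1, Snhg12 and Snhg5, the genes with the largest luteolin differences described below, and for the second start of Gas5, a gene whose probe sets gave unlike values. They are GRCm38.p6 sequences, 5′ to 3′ on the strand of the gene. Capitals mark TATAAA on that strand, or a tract of a C followed by 5 or more pyrimidines (C or T) that lies within 10 bases before to 20 bases after the start.
Snhg1 chr19:8723427-8723536 (plus strand): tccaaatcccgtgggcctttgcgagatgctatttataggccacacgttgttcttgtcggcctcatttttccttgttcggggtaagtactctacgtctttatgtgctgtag
Snhg12 chr4:132308618-132308727 (plus strand): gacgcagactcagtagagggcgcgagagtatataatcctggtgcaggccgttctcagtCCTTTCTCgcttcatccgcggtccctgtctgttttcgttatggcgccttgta
Snhg5 chr9:88522848-88522957 (minus strand): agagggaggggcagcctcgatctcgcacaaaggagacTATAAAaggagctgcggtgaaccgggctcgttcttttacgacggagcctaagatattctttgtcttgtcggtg
Gas5 second start chr1:161035106-161035215 (plus strand): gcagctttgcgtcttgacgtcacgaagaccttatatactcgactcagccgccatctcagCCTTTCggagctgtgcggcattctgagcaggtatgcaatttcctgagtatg

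Windows of 300 bases (250 before and 50 after a start) were searched for TATAAA and the stretch next to the start for the pyrimidine tract. TATAAA stood on the strand of the gene in 4 of the 8 windows (Snhg3, Snhg5, Snhg7 and Snhg8), and in 8.32% of 32851 mouse promoter windows. Counted from the start, TATAAA lay at -30 for Snhg7 and Snhg8, at -23 for Snhg5 and at 22, after the start, for Snhg3. On either strand, it stood in 5 of the 8 windows, the fifth being that of Snhg1, and in 13.6% of all windows. The pyrimidine tract, searched on the strand of the gene only, was found in 4 of 8 (Snhg7, Snhg8, Snhg12 and the second start of Gas5) and in 22.0% of all. The windows of Snhg1, Snhg12 and Snhg5, whose signals moved together as described below, did not share either motif on the gene strand. A match of letters is not a measured site.

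Signals are the linear intensities deposited by the study. Log2 fold changes, standard errors and adjusted p-values are from limma, fitted to log2 signals of all 12 arrays and adjusted over all 24342 probe sets with a mean signal of 50 or more in at least 1 condition, and a probe set is called at an adjusted p under 0.05. Of the 16 member probe sets, 14 were tested, and the other 2, both of Snhg5, stayed under 50 on every array (18.7 to 47.6). Arrays with the same replicate number deviated together, so a second fit took that number as a block, and its values stand where it changes a call that is given. The median signal per array lay between 52.2 and 56.4. Of 12 microglial markers, 11 had a mean signal of 50 or more and Cx3cr1 had 49.1. So had 1 of 5 neuron markers (Rbfox3), 2 of 5 astrocyte markers (Gfap and Slc1a3) and 3 of 4 oligodendrocyte markers (Mbp, Mag and Sox10). Of 5 fibroblast markers, 0 reached 50. No marker of neurons, astrocytes, oligodendrocytes or fibroblasts had a mean above 205. Over the 358 probe sets higher in LPS than in control, the median log2 difference from the control mean was 0.62 in luteolin + LPS replicate 2, against 1.29 and 1.33 in the other luteolin + LPS arrays and 1.58 to 1.75 in the LPS arrays. Control replicate 1 was the lowest control array for several host genes. A fold change of a host gene given below that moved by over 1.5 times without 1 of these arrays is also given without it.

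Snhg1, which hosts mainly box C/D snoRNAs, had signals of 1243, 1423 and 2049 in luteolin + LPS, against 3899, 4760 and 5454 in LPS-treated cells (probe set 1433674_a_at, replicates 1 to 3). It had 1336, 1418 and 1515 in luteolin-treated cells, against 2303, 3621 and 3945 in control. All 6 arrays with luteolin lay below all 6 arrays without it, and the 3 LPS arrays were the highest but for the overlap of LPS replicate 1 with control replicate 3. The log2 fold change was -1.60 (SE 0.23) in luteolin + LPS versus LPS, a 3.03-fold lower signal. In luteolin versus control it was -1.17 (SE 0.23), a 2.25-fold lower signal. Without luteolin + LPS replicate 2 the first value was -1.55, and without control replicate 1 the second was -1.41. With the 5 Snhg1 probe sets averaged they were -1.08 and -0.76. A smaller RNA amount per cell and a smaller share of expressing cells cannot be told apart in such bulk samples.

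Another 2 Snhg1 probe sets gave the same picture. By the array annotation, 1433675_at has the same source sequence as 1433674_a_at, so the likeness between them is not independent. Over the 12 arrays their log2 signals correlated with those of 1433674_a_at with an r of 0.997 (1433675_at) and 0.995 (1439399_a_at), as a description over arrays that share their conditions. Their log2 fold changes in luteolin + LPS versus LPS were -1.77 (SE 0.24) and -1.49 (SE 0.20), and in luteolin versus control -1.23 (SE 0.24) and -0.98 (SE 0.20).

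Snhg12, host of 3 H/ACA and 1 C/D snoRNA, had signals of 616, 333 and 446 in luteolin + LPS, against 1432, 2112 and 1828 in LPS-treated cells. It had 615, 372 and 400 in luteolin-treated cells, against 783, 2485 and 2018 in control. The groups with and without luteolin did not overlap, although control replicate 1 came close to the luteolin arrays. The log2 fold changes were -1.97 (SE 0.40) in luteolin + LPS versus LPS and -1.81 (SE 0.40) in luteolin versus control. Within replicate 1 the luteolin versus control difference was -0.35, against -2.74 and -2.33 within replicates 2 and 3, and the value without control replicate 1 was -2.31.

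Snhg5, known in human cells for its snoRNA U50, had signals of 757, 523 and 376 in luteolin + LPS, against 973, 1064 and 1006 in LPS-treated cells. It had 602, 388 and 496 in luteolin-treated cells, against 868, 976 and 1023 in control. Again every luteolin array lay below every array without luteolin, and the luteolin + LPS arrays spread more widely than the LPS arrays. The log2 fold changes were -0.94 (SE 0.23) in luteolin + LPS versus LPS and -0.97 (SE 0.23) in luteolin versus control. With its 3 probe sets averaged, 2 of them under the minimum of 50, they were -0.36 and -0.27.

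**Figure D1:**
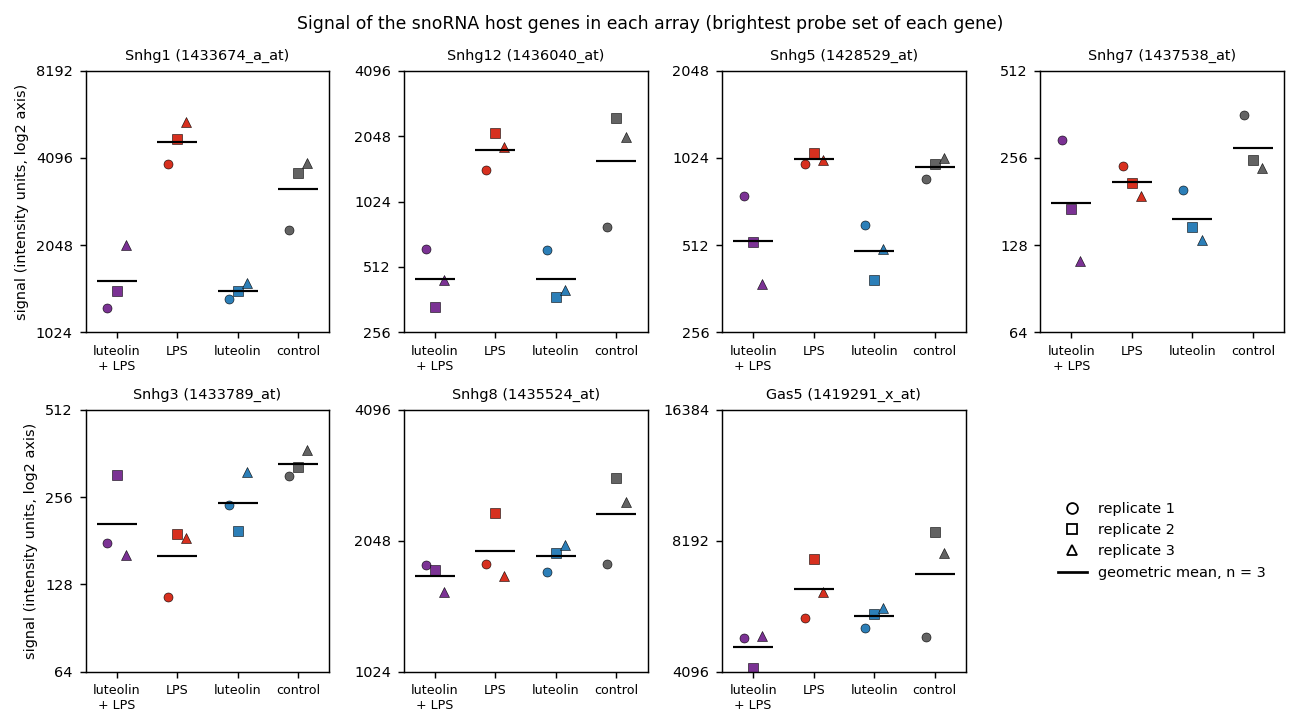
Signal of each host gene's probe set with the highest mean (intensity units, log2 axis, scaled per gene) in each array, by condition; symbols mark the replicate number and lines the geometric mean of 3 arrays. For Snhg1, Snhg12 and Snhg5, all 6 arrays with luteolin lie below all 6 arrays without it, whereas arrays with and without luteolin overlap for Snhg7, Snhg3, Snhg8 and Gas5.

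For the H/ACA host Snhg7, the arrays of luteolin and control were separate but those of luteolin + LPS and LPS overlapped. Its signals were 295, 170 and 113 in luteolin + LPS, against 240, 209 and 189 in LPS-treated cells, with a log2 fold change of -0.25 (SE 0.31). In luteolin-treated cells they were 198, 147 and 133, against 359, 251 and 236 in control, with a log2 fold change of -0.82 (SE 0.31). Within replicate numbers, the luteolin versus control difference was -0.86, -0.77 and -0.82. Without control replicate 1 that fold change was -0.63.

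Snhg8, host of the H/ACA snoRNA Snora24, varied little. Its signals were 1805, 1758 and 1561 in luteolin + LPS, against 1811, 2373 and 1701 in LPS-treated cells, and the groups overlapped (log2 fold change -0.19, SE 0.18). They were 1740, 1922 and 2006 in luteolin-treated cells, against 1815, 2863 and 2512 in control, again with overlap (-0.32, SE 0.18, and -0.51 without control replicate 1). Within replicate numbers all 6 differences lay below 0, from -0.43 to -0.0053 against LPS and from -0.57 to -0.0609 against control. The probe set named to Snora24 and Snhg8 together gave -0.10 and -0.31 (SE 0.16 each) in these contrasts.

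Snhg3, host of the H/ACA snoRNAs Snora73a and Snora73b, differed in direction between the contrasts. It had 178, 305 and 162 in luteolin + LPS, against 116, 190 and 185 in LPS-treated cells, with overlap and a log2 fold change of 0.37 (SE 0.27). It had 241, 195 and 312 in luteolin-treated cells, against 303, 326 and 372 in control, with overlap and a log2 fold change of -0.44 (SE 0.27). The highest luteolin + LPS value is that of replicate 2, the array with the smallest LPS response, and without it the fold change against LPS was 0.09.

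Gas5, the growth arrest-specific transcript, had signals of 4894, 4168 and 4958 in luteolin + LPS, against 5449, 7450 and 6254 in LPS-treated cells (1419291_x_at). It had 5175, 5573 and 5739 in luteolin-treated cells, against 4911, 8601 and 7673 in control. Luteolin + LPS and LPS did not overlap, and luteolin overlapped control through control replicate 1, the lowest control array. The log2 fold changes were -0.44 (SE 0.20) in luteolin + LPS versus LPS and -0.32 (SE 0.20) in luteolin versus control, and -0.57 for the second contrast without control replicate 1. The suffix _x_at marks probe sets that Affymetrix expected might cross-hybridize. Probe set 1449410_a_at gave alike values of -0.46 (SE 0.22) and -0.26 (SE 0.22), and -0.53 for the second without control replicate 1. Whether these probe sets share probes or cross-hybridize was not tested. With the 4 Gas5 probe sets averaged the fold changes were -0.18 and -0.27.

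**Figure D2:**
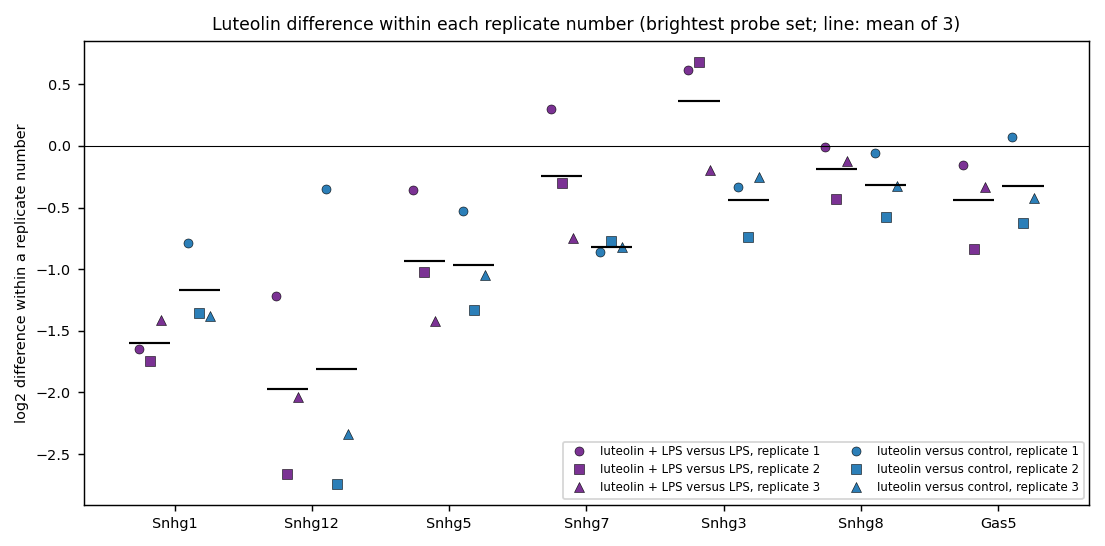
Log2 difference between luteolin + LPS and LPS (purple) and between luteolin and control (blue) within each replicate number, for the probe set of each host gene with the highest mean; lines mark the mean of 3. All 6 differences are below 0 for Snhg1, Snhg12, Snhg5 and Snhg8, and the 2 contrasts of Snhg12 run from -2.74 to -0.35.

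Over the 14 tested member probe sets, 14 lay below 0 on the log2 scale in luteolin versus control (median fold change -0.41), whereas the median over all tested probe sets was -0.005. In luteolin + LPS versus LPS, 12 of 14 were below 0, with a median of -0.45 against 0.02 over all. The arrays of luteolin and control did not overlap for 7 of the 14, all lower with luteolin, where 18.5% of all tested probe sets did not overlap and 10.1% were lower. For luteolin + LPS and LPS it was also 7 of 14, all lower, where 15.5% of all did not overlap and 7.33% were lower. Since the group was chosen on such differences and several probe sets read 1 gene, nothing is read from these shares.

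The interaction, the log2 fold change in luteolin + LPS versus LPS minus that in luteolin versus control, holds the same contrasts and is also given as a description. It was -0.43 (SE 0.33), -0.54 (SE 0.34) and -0.51 (SE 0.28) for the 3 Snhg1 probe sets with high signals, and -0.19, -0.27 and -0.33 without control replicate 1. For Snhg3 it was 0.81 (SE 0.38), and 0.53 without luteolin + LPS replicate 2. Over all tested probe sets limma called 0% for the interaction, with or without the block, and the unadjusted p was under 0.05 for 685 of 24342 without and 1404 with it.

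**Figure D3:**
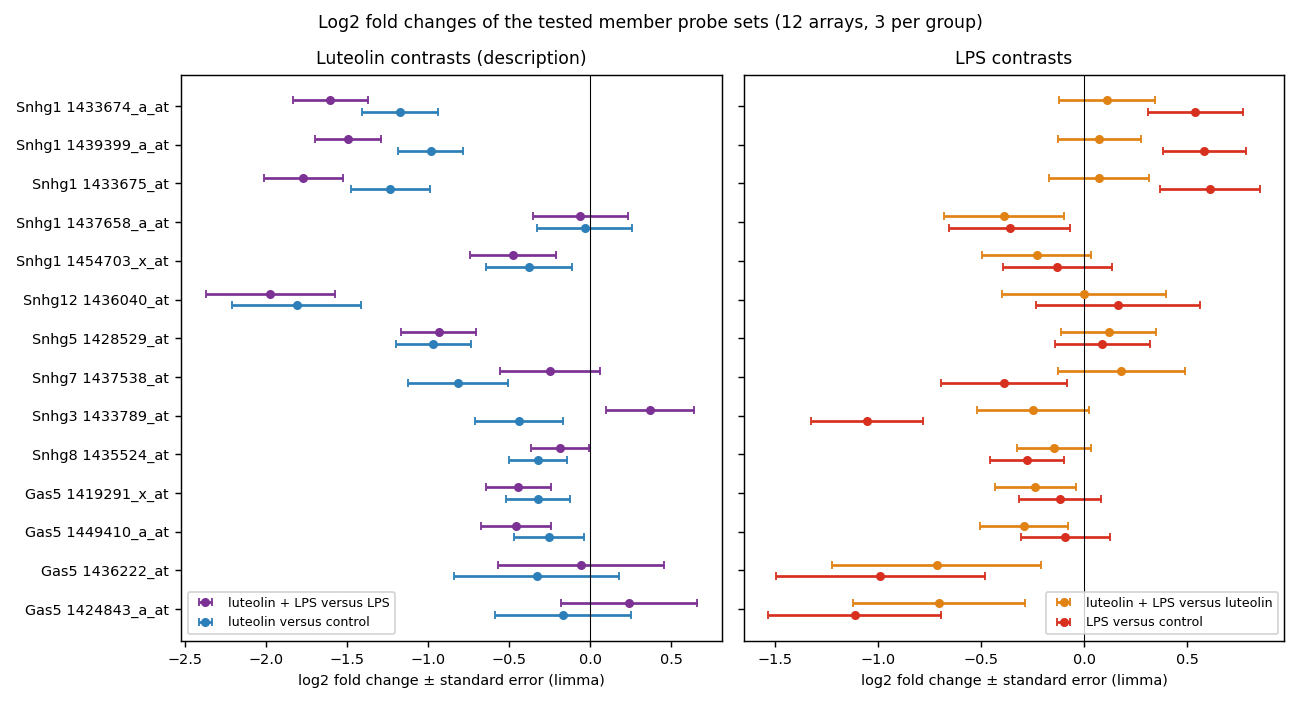
Log2 fold changes with limma standard errors of the 14 tested probe sets, for the luteolin contrasts (left) and the LPS contrasts (right), 3 arrays per condition. On the left, the 3 upper Snhg1 probe sets, Snhg12 and Snhg5 lie at -0.94 or lower, and on the right Snhg3 and the 2 lower Gas5 probe sets lie at -0.99 or lower in LPS versus control.

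LPS versus control was not used to choose the genes and was tested, although its LPS and control arrays are the ones the luteolin arrays were set against. No member passed the test without the block. Limma called 0 of 14, where 3.19% of all probe sets were called, and 5 of 14 had an unadjusted p under 0.05, as had 4733 of all 24342. With the replicate block it called 3 of 14, where 8.58% of all were called (3.22% higher and 5.36% lower). These were 2 Snhg1 probe sets, higher with LPS, and Snhg3, lower with LPS. LPS and control arrays did not overlap for 5 of 14 (2 higher, 3 lower), where 26.1% of all did not (10.4% higher, 15.7% lower).

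Snhg3 had the largest such difference among the genes with 1 probe set, with 116, 190 and 185 in LPS-treated cells against 303, 326 and 372 in control. All 3 LPS arrays lay below all 3 control arrays, and the within-replicate differences were -1.39, -0.77 and -1.01. The log2 fold change was -1.06 (SE 0.27, limma adjusted p = 0.0631, and 0.0397 with the replicate block). The adjusted p ran from 0.00927 to 0.179 over 23 alternatives and was 0.0299 without luteolin + LPS replicate 2. With the block and 1 further array left out, it stayed under 0.05 in 3 of 12 fits (0.0179 to 0.141), those without luteolin replicate 2, luteolin + LPS replicate 2 or luteolin + LPS replicate 3.

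Snhg1 was higher with LPS, at 3899, 4760 and 5454 against 2303, 3621 and 3945 in control, with 1 LPS array under 1 control array. The log2 fold change was 0.54 (SE 0.23, limma adjusted p = 0.232, and 0.046 with the replicate block). Probe set 1439399_a_at gave 0.58 (SE 0.20, limma adjusted p = 0.146, and 0.0308 with the block) and 1433675_at gave 0.61 (SE 0.24, limma adjusted p = 0.200, and 0.0568 with the block). Both block calls were lost without control replicate 1, the lowest of the control arrays, where the fold changes without the block were 0.30 and 0.40, and 0.34 for 1433675_at. With the block, the call of 1433674_a_at held in 2 of 12 fits with 1 array left out and that of 1439399_a_at in 5 of 12, and 1433675_at was called in 2 of 12. With the 5 Snhg1 probe sets averaged the fold change was 0.25 without the block. The member count with the block was 0 without control replicate 1 or 3 or any 1 of the LPS arrays.

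The other genes showed smaller LPS differences in these probe sets. The log2 fold change in LPS versus control was 0.09 (SE 0.23) for Snhg5, -0.39 (SE 0.31) for Snhg7, -0.28 (SE 0.18) for Snhg8 and -0.12 (SE 0.20) for Gas5 1419291_x_at, with limma adjusted p-values of 0.424 to 0.868. Without control replicate 1 these fold changes were 0.0206 for Snhg5, -0.20 for Snhg7, -0.47 for Snhg8 and -0.36 for Gas5. With the 4 Gas5 probe sets averaged the fold change was -0.58 (limma adjusted p = 0.223), and with the 3 of Snhg5 it was 0.15 (limma adjusted p = 0.554). Snhg12 gave 0.16 (SE 0.40, limma adjusted p = 0.856), which turned to -0.34 without control replicate 1.

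In the presence of luteolin, no member passed the test for an LPS difference. In luteolin + LPS versus luteolin, limma called 0 of 14 with or without the replicate block, where 1.29% of all probe sets (3.19% with the block) were called, and 0 of 14 had an unadjusted p under 0.05, against 2557 of all 24342. The arrays did not overlap for 2 of 14, both of Gas5 and lower with LPS, where 17% of all did not (10.1% lower). The log2 fold changes ran from -0.72 to 0.18 (from -1.12 to 0.22 without luteolin + LPS replicate 2). The lowest, that of Gas5 1436222_at, was -0.05 without luteolin + LPS replicate 3. Snhg1 1433674_a_at had 0.11 (SE 0.23). Snhg3 had -0.25 (SE 0.27), and -0.53 without luteolin + LPS replicate 2.

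The probe sets of Snhg1 and of Gas5 fell into kinds that did not move together. Snhg1 1437658_a_at and 1454703_x_at had signals of 88.1 to 211 and 66.1 to 176 over the 12 arrays. In luteolin + LPS versus LPS their log2 fold changes were -0.06 (SE 0.29) and -0.48 (SE 0.26), and in luteolin versus control -0.03 (SE 0.29) and -0.38 (SE 0.26), with overlap in both contrasts. Without luteolin + LPS replicate 2 the first pair was -0.33 and -0.76, and without control replicate 1 the second pair was -0.29 and -0.60. With 1433674_a_at they correlated over the 12 arrays with an r of 0.06 and 0.55.

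Gas5 1424843_a_at had signals of 128, 230 and 122 in LPS-treated cells against 238, 413 and 370 in control, with no overlap. Its log2 fold change was -1.11 (SE 0.42, limma adjusted p = 0.176). Probe set 1436222_at had 244, 268 and 99.1 in LPS-treated cells against 384, 381 and 347 in control (log2 fold change -0.99, SE 0.51, limma adjusted p = 0.317). Without LPS replicate 3, its lowest LPS array, that fold change was -0.53. The probe set named to Snord47 and Gas5 together gave -1.21 (SE 0.44, limma adjusted p = 0.165), with LPS replicate 3 at 39.1, under the minimum of 50. None of these passed the test with the block either (limma adjusted p = 0.108, 0.167 and 0.119). With the block and 1 array left out, 1424843_a_at passed in 1 of 12 fits, that without luteolin + LPS replicate 3 (limma adjusted p = 0.0492), and the other probe sets in 0 of 12. Over the same arrays 1419291_x_at and 1449410_a_at gave -0.12 and -0.09, or -0.36 and -0.37 without control replicate 1. A difference between probe sets of 1 gene was not tested, and which transcripts each of them reads was not analysed here.

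In luteolin + LPS, Gas5 1424843_a_at had 215, 309 and 88.7 against 331, 237 and 325 in luteolin-treated cells. The groups overlapped through luteolin + LPS replicate 2, the array that stood apart. The log2 fold change was -0.70 (SE 0.42), or -1.09 without that array. Without luteolin + LPS replicate 3, the lowest array of this probe set, it was -0.19. Luteolin + LPS replicate 2 also held the highest luteolin + LPS values of Snhg3, of both Snhg1 probe sets under 211 and of 1436222_at. Against LPS, 1424843_a_at gave 0.24 (SE 0.42), which turned to -0.15 without luteolin + LPS replicate 2. Without luteolin + LPS replicate 3 it was 0.75. The part of the smaller LPS response of luteolin + LPS replicate 2 in these values was not tested.

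**Figure D4:**
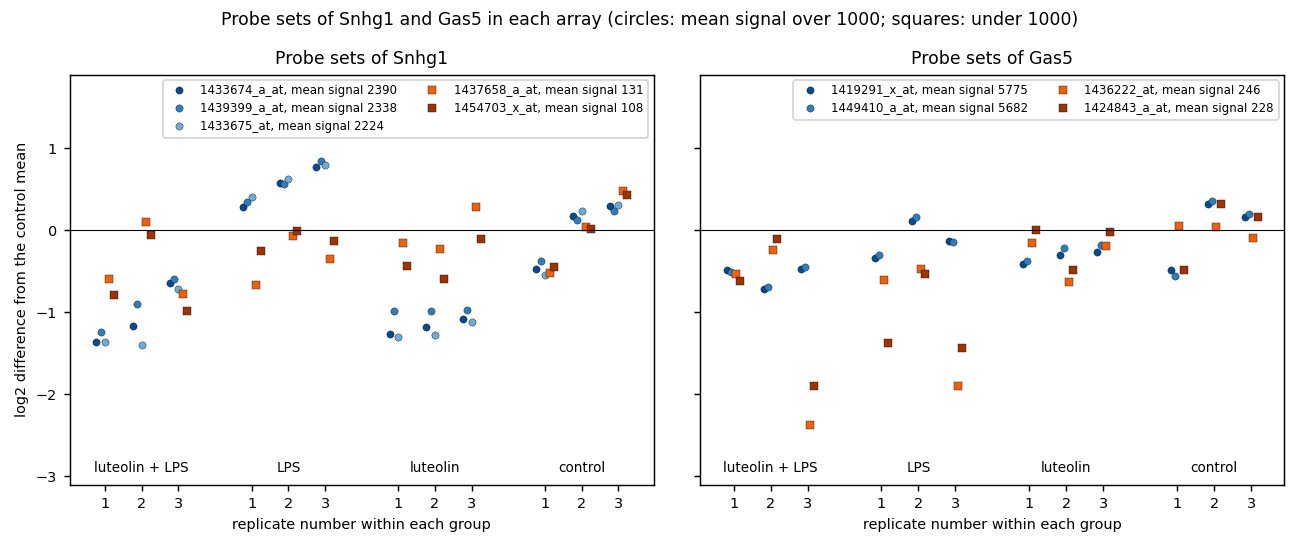
Log2 difference of each array from the control mean for the tested probe sets of Snhg1 (left) and Gas5 (right); circles are probe sets with a mean signal over 1000, squares those under it. The circles of Snhg1 separate all luteolin arrays from the arrays without luteolin and its squares do not, while the squares of Gas5 lie lowest in replicate 3 of luteolin + LPS and of LPS, where its circles do not.

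Over the 12 arrays, taken as a description of arrays that share conditions and replicate numbers, log2 signals of Snhg1 and Snhg12 correlated with an r of 0.90 (rho 0.73), Snhg5 and Snhg12 with 0.90 (rho 0.90) and Snhg1 and Snhg5 with 0.76 (rho 0.75). Snhg8 went with Gas5 1419291_x_at (r 0.87, rho 0.66). Snhg3 went with Gas5 1424843_a_at (r 0.82, rho 0.92) and Snhg1 1437658_a_at (r 0.78, rho 0.88), but not with Snhg1 1433674_a_at (r -0.13, rho 0.01). These 3 probe sets, of Snhg3, Gas5 and Snhg1, had no signal above 413 on any array.

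The genes whose log2 signal was most like that of Snhg1 1433674_a_at over the 12 arrays were Efcab2 (r 0.97), Itfg2 (r 0.96), Azin1 (r 0.95), Stambpl1 (r 0.94) and Spata5l1 (r 0.94). Azin1 encodes antizyme inhibitor, a regulator of polyamine synthesis. Its geometric mean signal was 1744 in luteolin + LPS and 3283 in LPS-treated cells, and 1898 in luteolin-treated cells and 2582 in control. Spata5l1, an AAA-type ATPase, had 160 in luteolin + LPS and 382 in LPS-treated cells, and 115 in luteolin-treated cells and 246 in control. No other host gene listed below was among these 5.

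Other non-coding snoRNA host genes gave mixed directions. Of 15 listed, 10 had a probe set and 8 were tested, and limma called 0 of the 8 in each of the 4 contrasts. At an unadjusted p under 0.05 there were 4 in luteolin + LPS versus LPS, 2 in LPS versus control and 1 in each of the other contrasts. Over all 24342 tested probe sets, 3401, 4733, 1892 and 2557 had such a p in luteolin + LPS versus LPS, LPS versus control, luteolin versus control and luteolin + LPS versus luteolin, in that order. Limma called 0.246% of all (3.06% with the replicate block) in luteolin + LPS versus LPS and 0% (0.0205% with the block) in luteolin versus control. Snhg16 had a geometric mean of 360 in luteolin + LPS and 830 in LPS-treated cells (log2 fold change -1.20, SE 0.22, limma adjusted p = 0.0595, and 0.0359 with the replicate block). Zfas1, host of C/D snoRNAs, had 1711 in luteolin + LPS and 3232 in LPS-treated cells (-0.92, SE 0.28, limma adjusted p = 0.178). Dancr went the other way, with 252 in luteolin + LPS and 140 in LPS-treated cells (0.85, SE 0.26, limma adjusted p = 0.178, and 0.0272 with the block). In LPS versus control Dancr gave -0.88 (SE 0.26, limma adjusted p = 0.0991, and 0.00886 with the block). The median over the 8 was -0.05 in luteolin + LPS versus LPS and -0.15 in luteolin versus control, against 0.02 and -0.005 over all tested probe sets.

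**Figure D5:**
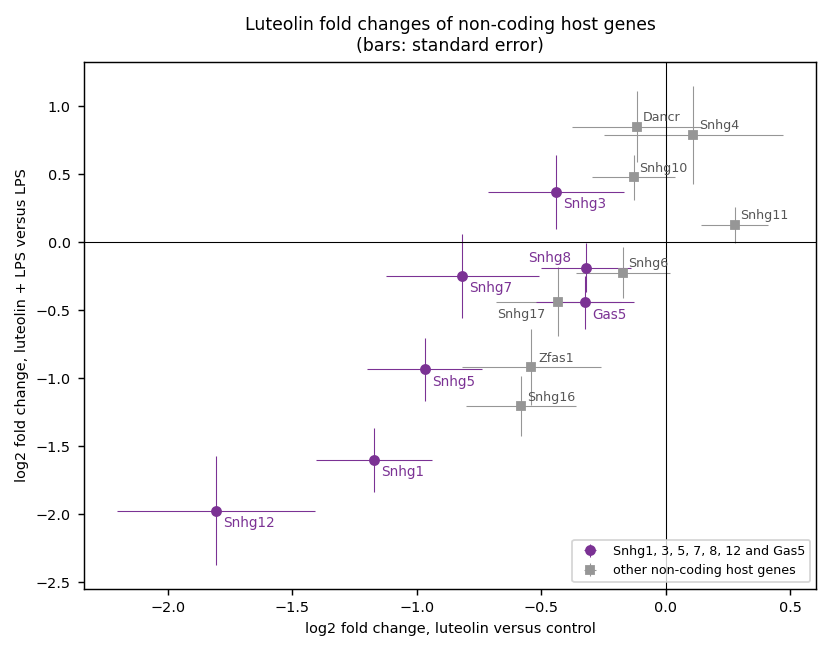
Log2 fold change in luteolin + LPS versus LPS (vertical axis) against that in luteolin versus control (horizontal axis), with limma standard errors, for the 7 host genes (circles) and 8 other non-coding host genes (squares), 1 probe set per gene. Snhg1, Snhg12 and Snhg5 lie at the lower left, Snhg16 and Zfas1 lie below 0 on both axes, and Dancr and Snhg4 lie above 0 on the vertical axis.

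Protein-coding snoRNA hosts, mostly ribosomal protein and translation factor genes, showed little. Of 36 listed, 24 were tested and limma called 0 in each contrast, with 2 at an unadjusted p under 0.05 in luteolin + LPS versus LPS, 1 in luteolin versus control and 0 in each LPS contrast. Their median log2 fold change was -0.007 in luteolin + LPS versus LPS and -0.05 in luteolin versus control. With the replicate block, Wdr43, a ribosome biogenesis factor, was called lower in luteolin + LPS (log2 fold change -0.53, SE 0.17, limma adjusted p = 0.200, and 0.0456 with the block).

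Of the core proteins that coat snoRNAs, 7 were tested (Fbl, Nop56, Nop58, Dkc1, Nhp2, Nop10 and Gar1) and limma called 0 in each contrast, with or without the block, with 0 at an unadjusted p under 0.05. In LPS versus control the fold changes of all 7 lay below 0, their median being -0.36 on the log2 scale against -0.04 over all tested probe sets. Fbl, the box C/D methyltransferase fibrillarin, had a geometric mean of 3765 in LPS-treated cells and 4816 in control (-0.36, SE 0.19, limma adjusted p = 0.340). Dkc1, the H/ACA pseudouridine synthase dyskerin, had 2308 in LPS-treated cells and 3461 in control (-0.58, SE 0.46, limma adjusted p = 0.525).

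Of 12 assembly and trafficking factors, limma called 0 in each contrast, with 3 at an unadjusted p under 0.05 in LPS versus control and 1 in each of the luteolin contrasts. With the block, Pih1d1, a subunit of the chaperone complex that assembles box C/D particles, was called higher in luteolin + LPS than in LPS-treated cells (0.77, SE 0.15, limma adjusted p = 0.068, and 0.0404 with the block). Of 10 tested nonsense-mediated decay factors, 0 were called in each contrast, with or without the block, and 4 had an unadjusted p under 0.05 in luteolin + LPS versus LPS, 3 in luteolin versus control, 1 in luteolin + LPS versus luteolin and 0 in LPS versus control. Of 14 tested transcripts known as targets of that decay, 2 rose and 0 fell with LPS: Slc7a11, the cystine transporter (log2 fold change 2.95, SE 0.59, limma adjusted p = 0.0244), and Atf3, a stress transcription factor (1.06, SE 0.21, limma adjusted p = 0.0235). Both are also part of stress responses. Over all 24342 tested probe sets, limma called 358 higher and 419 lower in LPS versus control. In the other 3 contrasts limma called 0 of the 14. The unadjusted p was under 0.05 for 4 in luteolin + LPS versus LPS, 3 in luteolin versus control and 2 in luteolin + LPS versus luteolin. Over all 24342 tested probe sets it was under 0.05 for 3401, 1892 and 2557 in these contrasts, in that order. Some differences were large all the same. In luteolin + LPS versus LPS the log2 fold changes of the 14 ran from -2.51 to 0.83. In luteolin versus control they ran from -2.49 to 1.29. The study lists Ddit3, a gene of this list, as lower with luteolin, both with and without LPS. In these lists, each gene was represented by its probe set with the highest mean.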

How the data were processed

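Total RNA of BV-2 cultures was hybridized to 12 Affymetrix Mouse Genome 430 2.0 arrays, which the study describes as 3 independent stimulation experiments. The labels' labelling protocol names a whole-transcript sense kit, whereas the study's methods give cRNA by the standard protocol. The joint treatment, which the study's methods write as LPS with a second amount of LPS, was taken to be luteolin + LPS from the labels. The authors summarized probe intensities with RMA, which subtracts background, brings all arrays to 1 distribution by quantiles and combines probes by median polish. The deposited values are linear intensities, 1 per probe set and array. A change shared by most genes is therefore not seen, and the number of arrays limits the precision.

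The log2 of the deposited intensities was taken. The platform annotation, updated through a mouse RefSeq table, gave 1 gene for 34958 of 45101 probe sets (34754 matched) and several for 932, and the remaining 9211 had no name here. Probe sets with a geometric mean of 50 or more in at least 1 group were kept (24342). One model with 4 group means was fitted with the limma package (version 3.58.1, functions lmFit, contrasts.fit and eBayes; R 4.3.3), and p-values were adjusted by Benjamini-Hochberg. The study's single-probe method was not run.

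Pairing by replicate number was checked on deviations from the group means. All 18 pairs of arrays with the same number correlated (r 0.114 to 0.570, median 0.37). The median r of the other 36 pairs between groups was -0.27 (-0.54 to 0.47), and 8 of them had an r over 0.1. The fit was tested on simulated data. Plots were made in matplotlib 3.10.9 under Python 3.11.15.

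The host genes, the gene lists and the tests were chosen with earlier results of these data known. Every probe set of the 7 genes is named, and from the other lists those among the largest log2 fold changes. Alternatives covered the block (fixed or random), the filter, a floor, an offset, centring, array weights, the samples fitted, the probe sets of a gene and each array left out. The block with each array left out was added after the data were seen.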

Additional observations from a re-analysis of the deposited data

How the results depend on the processing

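Counts of calls depended on the settings. The fold changes of Snhg1 1433674_a_at, Snhg12 and Snhg5 in the luteolin contrasts stayed below 0 under all 23 alternatives each. This is a description only. Every luteolin array of these probe sets lay below every array without luteolin, so leaving out 1 array could not turn the sign. LPS versus control (777 called) gave 2088 with the replicate block, 1897 with a random block, 383 with only the groups compared, 3501 with array weights, 505 with 1 probe set per gene, 499 with the probe sets of a gene averaged and 225 to 1035 with each array left out; its member count of 0 became 3 with the block, 2 with the random block, 2 with array weights and 0 to 1 with each array left out. Luteolin + LPS versus luteolin (314) gave 776, 633, 123 and 926 under the first 4 of these settings, 204 with the mean of probe sets and 76 to 489 with each array left out. Luteolin versus control (0) gave 5 with the block, 24 with the random block, 1473 with array weights and 0 to 2 with each array left out. Luteolin + LPS versus LPS (60) gave 745 with the block, 581 with the random block, 0 with only the groups compared, 538 with array weights and 1 to 127 with each array left out. The interaction (0) gave 2 with signals under 50 set to 50, 6 with array weights and 0 to 3 with each array left out. With the replicate block and each array left out, an alternative chosen after seeing the data, members called were 0 to 4 in LPS versus control and 0 in luteolin + LPS versus luteolin. In the LPS contrasts the block changed no other member call than those given with it.

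Centring each array on its median moved the split of higher and lower calls: 417 and 270 against 358 and 419 in LPS versus control, 154 and 123 against 145 and 169 in luteolin + LPS versus luteolin, and 39 and 50 against 20 and 40 in luteolin + LPS versus LPS.

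Fold changes in the LPS contrasts that turned their sign were not called. In LPS versus control with each array left out they ran from -0.35 to 0.0841 for Snhg1 1454703_x_at, from -0.34 to 0.49 for Snhg12 (-0.0301 with array weights), from -0.36 to 0.0447 for Gas5 1419291_x_at and from -0.37 to 0.0889 for Gas5 1449410_a_at. In luteolin + LPS versus luteolin they ran from -0.10 to 0.27 for Snhg1 1433674_a_at (-0.0724 with its probe sets averaged), from -0.15 to 0.19 for 1433675_at, from -0.0848 to 0.24 for 1439399_a_at, from -0.14 to 0.37 for Snhg5, from -0.18 to 0.51 for Snhg7 and from -0.23 to 0.22 for Snhg12. In luteolin + LPS versus LPS, a description, signs also turned for the probe sets of 1 gene: over all alternatives the values ran from -0.61 to 0.081 for Snhg7, from -0.39 to 0.75 for Gas5 1424843_a_at, from -0.60 to 0.60 for 1436222_at and from -0.36 to 0.12 for Snhg1 1437658_a_at, which ran from -0.29 to 0.21 in luteolin versus control. The cause of these changes was not tested. Whether signals near the minimum of 50 limited the precision of some probe sets was also not tested.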
